A study of Mus musculus with 2 samples.

Results

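Hepatocyte-rich droplets were 97 of 18633 cell barcodes in droplet libraries of mouse liver cells that had been enriched for macrophages. They were chosen by their counts. A droplet needed at least 200 detected genes, at most 40% of its unique molecular identifiers (UMIs, one per captured transcript) from mitochondrial genes, and no barcode sequence that also stood in the other library with over 5 times the UMIs. Of the UMIs, at least 2% had to come from 6 hepatocyte genes (Alb, Apoa1, Ttr, Fabp1, Apoc3 and Serpina1a), less than 0.8% from the Kupffer cell genes Clec4f, Cd5l and C1qa, and less than 25% from the globin genes Hba-a1 and Hbb-bs. The limits on genes, mitochondrial UMIs and shared barcodes alone kept 15217 droplets, of which 15 of 5967 in library 1 (0.251%, exact Clopper-Pearson 95% interval 0.141 to 0.414%) and 82 of 9250 in library 2 (0.886%, 0.706 to 1.10%) were hepatocyte-rich. Levels of these 11 genes inside the droplets were fixed by that choice and are given as description.

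The study took liver from 1 untreated male mouse of genotype Spta wt/wt and 1 untreated male littermate of genotype Spta sph/sph, both aged 8 to 10 weeks. Spta codes for the alpha chain of spectrin in the red cell skeleton, and sph/sph mice have fragile red cells and haemolytic anaemia. The liver was digested by perfusion with collagenase, the pellets of slow centrifugation, which hold most hepatocytes, were discarded, and macrophages were pulled from the rest with beads against F4/80, a macrophage surface protein. A barcode suffix separates 2 libraries, and no label used here ties a suffix to a genotype, so values are given for library 1 and library 2 and no difference is assigned to the mutation. With 1 mouse per genotype no test between libraries was run, and all intervals cover counting error only.

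Hepatocytes are the secretory and metabolic cells of the liver. They make albumin, apolipoproteins, clotting factors and protease inhibitors for the blood, the hormone hepcidin that limits iron release, and the enzymes of the urea cycle and of drug oxidation. They lie in plates between the portal vein and the central vein, and their enzymes differ along that axis: urea cycle enzymes and Cyp2f2 are higher near the portal vein, cytochrome P450 enzymes such as Cyp2e1 are higher near the central vein, and glutamine synthetase (Glul) is made in the last layer of cells around the central vein.

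Within the limits of the rule, the droplets fell into 2 depth classes. No droplet lay between 4813 and 11268 UMIs, and the 11 droplets above that gap, called deep here, were 1 of library 1 with 37085 UMIs and 10 of library 2 with 11268 to 30746 UMIs. The other 14 droplets of library 1 and 72 of library 2, called shallow, had medians of 785 and 1289.5 UMIs and reached 2004 and 4813 UMIs. The gap depended in part on the mitochondrial limit. Droplets that failed only that limit had 2786 to 10229 UMIs in library 1 (3 droplets) and 3860 to 7886 UMIs in library 2 (5 droplets). Some of them lay inside the gap. The deep class held few droplets and most of the RNA: 74.0% of the UMIs of library 1 and 66.4% of those of library 2. Summed values for library 1 therefore mostly describe a single droplet, and deep and shallow droplets are described apart wherever they differ.

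**Figure D1:**
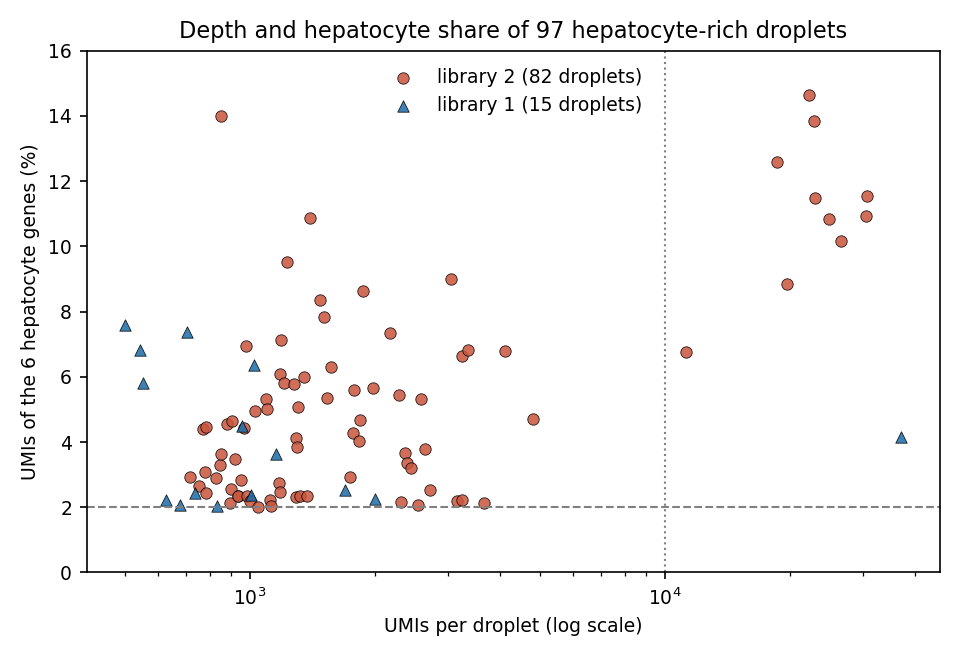
UMIs per droplet (x axis, log scale) against the percentage of UMIs from the 6 hepatocyte genes (y axis) for the 97 hepatocyte-rich droplets; triangles are library 1 and circles library 2. The dashed line is the 2% limit of the rule and the dotted line lies at 10000 UMIs; the 10 deep droplets of library 2 sit between 6.76 and 14.6%, and the 1 of library 1 at 4.15%.

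The limits cut through a continuous range at the shallow end. In library 2, 18 droplets held 2 to 2.5% of hepatocyte gene UMIs and 14 fell just outside with 1.5 to under 2%. In library 1 these numbers were 6 and 14. A further 34 droplets of library 2, with 693 to 1386 UMIs, met every other limit and were left out for Kupffer cell genes at 0.8% or more, while library 1 had none. The mitochondrial limit left out 3 droplets of library 1 and 5 of library 2, and the globin limit left out 1 of library 2. Deep droplets stood apart among those within the mitochondrial limit: 1 droplet of over 10000 UMIs, in library 2, held 1 to under 2%, and it carried 10.6% globin UMIs.

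Deep droplets of one library had a faint counterpart in the other. For 10 of the 11, the same barcode sequence occurred in the other library with 547 to 1217 UMIs, which was 2.94 to 3.97% of the deep droplet's count. The counterparts were close in content. Their hepatocyte share differed from that of the deep droplet by between -1.39 and 2.90 percentage points and their mitochondrial share by between -0.25 and 2.99 points. The counterpart of the library 1 droplet in library 2 held 7 Glul and 5 Cyp2e1 UMIs and no Cyp2f2, and the counterpart of the library 2 droplet with the highest hepcidin count held 6 Hamp UMIs. The rule set these counterparts aside, 9 in library 1 and 1 in library 2. With them kept in, the share of hepatocyte-rich droplets in library 1 was 0.352%. Of the 86 shallow droplets, 1 shared its sequence with the other library, where it carried 8599 UMIs of which 1.02% were Kupffer cell genes and 0.163% hepatocyte genes. Other droplets of 10000 UMIs or more shared sequences as well, 48 of 435 in library 1 and 865 of 1732 in library 2.

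**Figure D2:**
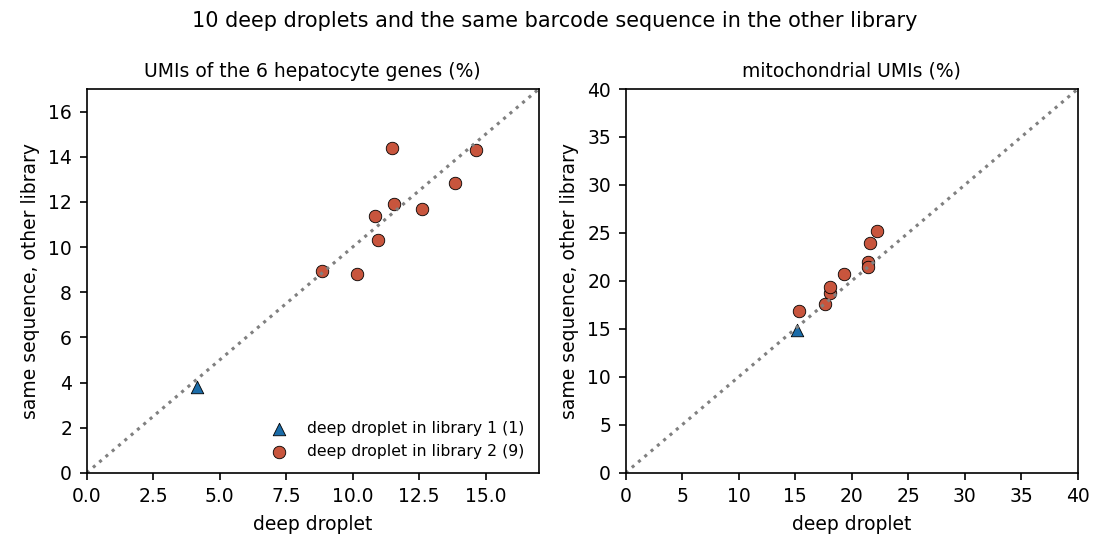
Share of UMIs from the 6 hepatocyte genes (left) and from mitochondrial genes (right), in percent, in 10 deep droplets (x axis) and in the droplet with the same barcode sequence in the other library (y axis); the dotted line marks equal shares. The points follow the line, with the library 1 droplet lowest at 4.15 and 3.78% on the left.

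Markers of other liver cells separated the depth classes. In the 10 deep droplets of library 2, the list of 14 Kupffer cell genes took 0.0215 to 0.109% of UMIs, all 8 B cell, 11 T or natural killer cell and 10 neutrophil genes were at 0, and the stellate cell list reached 0.00751%. The library 1 droplet held 0.170% Kupffer genes, above that whole range, with Marco, Adgre1 and Folr2 at 0, and no UMI of the stellate, B, T and neutrophil lists. It also held 34 UMIs (0.0917%) of the dendritic cell or monocyte list, namely 16 of Cd74, 8 of H2-Ab1, 5 of H2-Aa and 5 of Lyz2, where no deep droplet of library 2 passed 0.00887%. The part of this RNA in the values of the library 1 droplet was not tested. Of the 10 bile duct genes, Epcam, Krt19, Krt7 and Spp1 were at 0 in all 11, while Krt18, Krt8 and Sox9 gave 41 UMIs in 9 of the 10 library 2 droplets, and Krt18 and Krt8 gave 5 UMIs in the library 1 droplet. The Kupffer list levels of all 11 lay below the medians of lymphocyte droplets, 0.204% in library 1 and 0.862% in library 2. Lymphocyte droplets (98 and 175) had at least 3 UMIs of B, T or natural killer cell genes. They were also not hepatocyte-rich and held less than 0.8% of UMIs from Clec4f, Cd5l and C1qa. Kupffer droplets (3752 and 5489) held those genes at 0.8% of UMIs or more. Both sets serve below as the level of free hepatocyte RNA, and these limits fixed part of their hepatocyte and Kupffer gene levels. In lymphocyte droplets of library 2 the erythroid list reached 46.7%, the megakaryocyte or platelet list 10.4% and the neutrophil list 10.3%.

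Shallow droplets carried more RNA of other cells. In library 2 the Kupffer list had a median of 1.45% (0.471 to 3.58%, 72 droplets) and the erythroid list a median of 1.41% with a maximum of 28.0%, against lymphocyte droplets at 0.862 and 0.815%. The erythroid list holds the 2 globin genes of the rule, which gave 2855 of its 3598 UMIs in these droplets. Its level was therefore in part fixed by the choice of droplets. In library 1 the Kupffer list had a median of 0.570% (0.0591 to 1.91%, 14 droplets) against 0.204% in lymphocyte droplets, and erythroid genes did not pass 0.0591%. Endothelial genes passed 1% of UMIs in 2 of 14 shallow droplets of library 1 and reached 2.30%, stellate cell genes passed 1% in 1 of them and in 3 of 72 in library 2, and T or natural killer cell genes passed 1% in 1 of library 2. No doublet caller was used, so droplets with a second cell stay in these counts. The part of such RNA in the results for shallow droplets was not tested.

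Hepatocyte genes were also frequent in shallow droplets among genes that the rule did not use. After each droplet had been thinned to 1000 UMIs, Apoa2, an apolipoprotein of high-density lipoprotein, was detected in 98.0% of 51 shallow droplets of library 2 (exact 95% interval 89.6 to 99.95%) against 16.2% of 173 lymphocyte droplets (11.0 to 22.5%). The asialoglycoprotein receptor Asgr1 was detected in 21.6% (11.3 to 35.3%) against 1.73% (0.359 to 4.98%), and the liver transcription factor Hnf4a in 11.8% (4.44 to 23.9%) against 0 of 173, with an exact upper limit of 2.11%. Before thinning the shares in these droplet sets, whose median depths were 1289.5 and 2683 UMIs, were 97.2 and 48.6% for Apoa2, 33.3 and 6.29% for Asgr1, and 16.7 and 1.71% for Hnf4a. In library 1 only 5 shallow droplets reached 1000 UMIs. All 5 held Apoa2, 1 held Asgr1 and none held Hnf4a.

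Albumin was the most abundant transcript outside the mitochondrial genes in the summed deep droplets of each library. The library 1 droplet held 609 Alb UMIs, or 16422 CPM (UMIs of the gene per 1000000 UMIs). The 10 library 2 droplets held 482 to 1926 Alb UMIs, with a median of 59535 CPM (34147 to 80960), so that all 10 lay above the library 1 droplet. The same order held for Apoa2, at 10948 CPM in library 1 and 14821 to 40969 CPM in library 2, for Ttr, the thyroxine carrier, at 5393 against 8431 to 23086 CPM, and for Apoc3, an inhibitor of lipoprotein lipase, at 2939 against 6656 to 23609 CPM. It did not hold for Apoc1, at 14130 against 10561 to 20536 CPM, nor for the serine protease inhibitor Serpina3k, at 9977 against 4958 to 12067 CPM. Alb, Ttr and Apoc3 are genes of the rule, and the order did not hold for its others. Apoa1 stood at 4881 against 1331 to 12462 CPM, Fabp1 at 7658 against 4792 to 18756 CPM and Serpina1a at 4234 against 3279 to 6050 CPM. The library 1 droplet differs in zone from most of library 2, as described below, so zone and library cannot be told apart.

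In shallow droplets the levels of abundant transcripts overlapped between libraries. Alb ran from 10978 to 42553 CPM in 14 droplets of library 1 (median 20015) and from 1514 to 64706 CPM in 72 of library 2 (median 14023). Apoa2 had medians of 5097 CPM (1772 to 13972) and 11342 CPM (0 to 41176), and the iron carrier transferrin (Trf) medians of 4124 and 2741 CPM. The spread within a library exceeded the gap between the medians for these 3 genes.

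The deep droplets divided along the portal to central axis. Droplets are named here by their total UMIs. The library 1 droplet held 352 Glul UMIs, 306 of Cyp2e1, 190 of Oat (ornithine aminotransferase), 106 of Cyp1a2 and 44 of the glutamate transporter Slc1a2, with 0 UMIs of Cyp2f2, of the histidine and serine breakdown enzymes Hal and Sds, and of the urea cycle enzyme Cps1. Of its UMIs on the 2 zone lists of 22 genes each, 89.6% came from the central vein list. No library 2 droplet held Slc1a2, and Glul was at 0 or 1 UMI in all 10. The library 1 droplet was thus the only deep one with more than 1 Glul UMI, the marker of the cells next to the central vein.

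Within library 2, Cyp2e1 and Cyp2f2 were nearly exclusive. Of the 10 deep droplets, 4 held 21, 99, 48 and 127 Cyp2e1 UMIs (in the droplets of 11268, 22873, 22993 and 26636 UMIs) with 2, 0, 0 and 0 UMIs of Cyp2f2. The other 6 held 28 to 47 Cyp2f2 UMIs with 0 or 1 of Cyp2e1. These 2 genes served to name the droplets Cyp2e1-rich and Cyp2f2-rich, a grouping made after their values were seen, so only other genes say how the groups differ. The share of the central list among zone list UMIs was 32.1 to 59.2% in the Cyp2e1-rich droplets and 3.40 to 21.8% in the Cyp2f2-rich ones. Both figures include the naming genes.

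Both genes lie on chromosome 7, and the bases before their RefSeq starts (build GRCm38.p6) are shown because the droplets split by them. Each run begins 250 bases before the start and ends where the first exon annotated by GENCODE M21 begins, chr7:140763569-140763738 on the plus strand for Cyp2e1 and chr7:27119705-27119908 on the plus strand for Cyp2f2. Capitals mark CTTTGA, the core of sites bound by TCF and LEF, which act in the Wnt pathway that keeps the central vein pattern.
Cyp2e1: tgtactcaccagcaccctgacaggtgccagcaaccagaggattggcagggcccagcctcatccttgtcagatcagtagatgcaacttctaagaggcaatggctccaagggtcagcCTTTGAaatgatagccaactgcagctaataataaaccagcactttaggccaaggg
Cyp2f2: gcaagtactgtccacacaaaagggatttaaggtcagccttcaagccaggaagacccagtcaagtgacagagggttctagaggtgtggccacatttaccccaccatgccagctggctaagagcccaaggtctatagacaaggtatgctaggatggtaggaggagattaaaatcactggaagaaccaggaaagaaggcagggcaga
The motif was searched on both strands, and neither promoter held the motifs searched for the genes below. Cyp2e1 had 1 match and Cyp2f2 none in the 250 bases, and 13.8% of 32851 promoters of that length held it. A match describes letters only, and the absence of one says nothing of a factor.

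Further genes split the 4 and the 6 droplets of library 2 without overlap. Of 784 genes with enough UMIs, 18 (2.3%) were higher in all 6 Cyp2f2-rich droplets and 14 (1.79%) were higher in all 4 Cyp2e1-rich ones. Of 9 measured genes of the central list 3 were among the latter, namely Cyp2e1 itself, Cyp2c29 and the calcium-binding enzyme regucalcin (Rgn), and of 18 measured portal genes 5 were among the former, Cyp2f2 itself, Hal, Arg1, Uroc1 and Ftcd. Without the naming genes this left 2 and 4, against the background shares just given.

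Rgn stood at 1087 to 1574 CPM in the Cyp2e1-rich droplets and 195 to 698 CPM in the Cyp2f2-rich ones, with 1968 CPM in the library 1 droplet. Arginase 1 (Arg1), the last step of the urea cycle, stood at 131 to 478 against 761 to 1345 CPM, with 27.0 CPM in library 1. Genes outside the zone lists split as well. Cyp3a11, a P450 enzyme of steroid and drug oxidation, was at 2088 to 4722 CPM against 0 to 1664 CPM, and the bile acid and drug importer Slco1b2 at 621 to 1435 against 163 to 591 CPM. Hemopexin (Hpx), the plasma carrier of free heme, was lower in the Cyp2e1-rich droplets, at 1775 to 4055 against 5100 to 6494 CPM, and at 782 CPM in the library 1 droplet. Over all 32 genes that split without overlap, the naming genes included, the library 1 droplet lay within or beyond the Cyp2e1-rich range for 22, within or beyond the Cyp2f2-rich range for 9 and between them for 1. Chchd10, for example, a protein of the mitochondrial membrane space, stood at 1321 CPM in the library 1 droplet, above the 710 to 855 CPM of the Cyp2f2-rich droplets.

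Not every zone gene followed the split. Ass1, the urea cycle enzyme that joins citrulline and aspartate, was found in all 10 library 2 droplets at 16 to 140 UMIs, with 16 to 42 in the Cyp2e1-rich and 36 to 140 in the Cyp2f2-rich group. Cps1, the first urea cycle enzyme, was found in all 10 at 15 to 69 UMIs and in the library 1 droplet at 0. Mup20, on the portal list, overlapped with 50 to 102 UMIs in the Cyp2e1-rich and 27 to 223 UMIs in the Cyp2f2-rich droplets. Overlap of ranges held for 13 of 18 portal and 6 of 9 central genes.

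**Figure D3:**
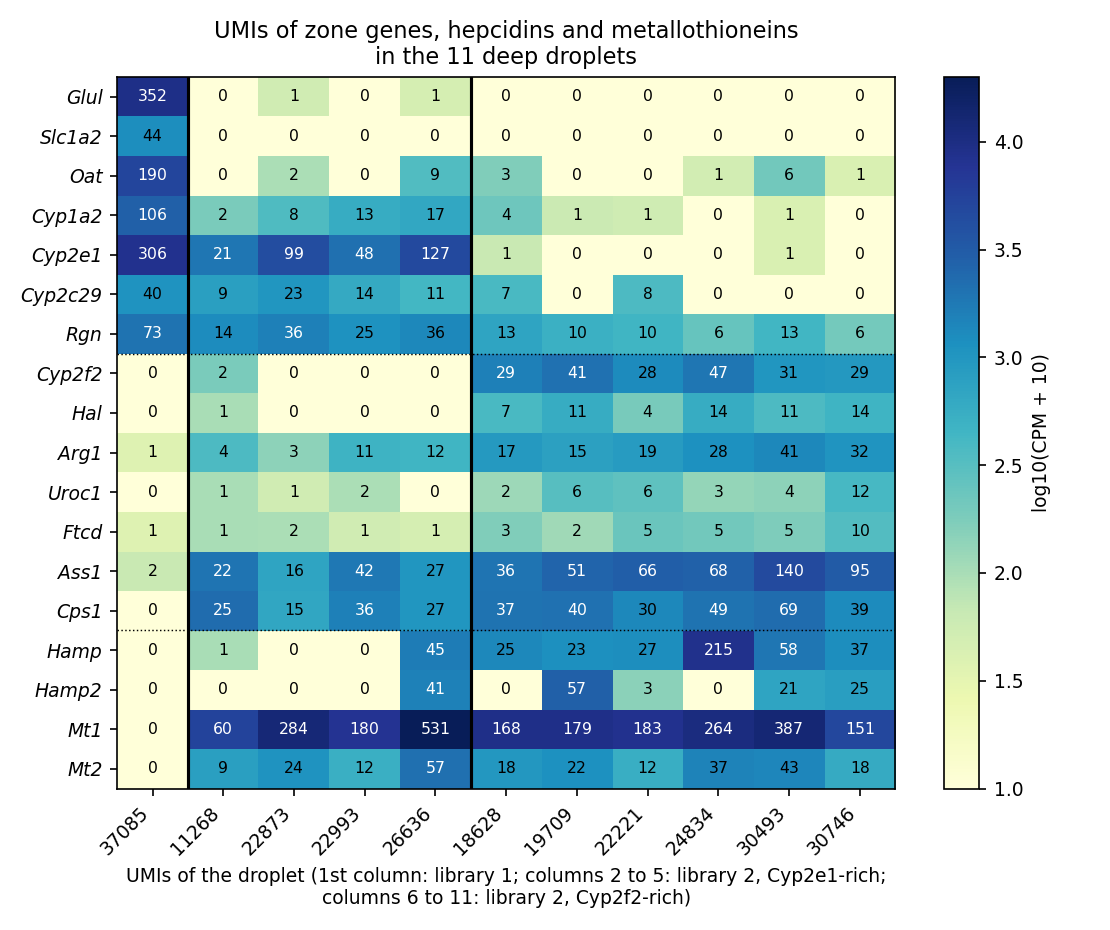
UMIs (numbers) of zone genes, hepcidins and metallothioneins in the 11 deep droplets, shaded by log10 of CPM + 10; columns are droplets named by total UMIs, and upright lines separate library 1, the 4 Cyp2e1-rich and the 6 Cyp2f2-rich droplets of library 2. Glul has 352 UMIs in the first column and 0 or 1 elsewhere, Cyp2e1 has 21 or more in the first 5 columns and Cyp2f2 28 or more in the last 6, while Mt1 is at 0 in the first column and at 60 to 531 in all others.

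The shallow droplets could be placed on the axis only in part. In library 2, 31 held Cyp2e1 alone, 8 held Cyp2f2 alone, 33 held neither and none held both, with at most 6 UMIs of the pair in a droplet. Without the naming gene, the central list made up 35.3% of zone list UMIs in the 31 droplets, 15.2% in the 8 and 18.1% in the 33. In library 1, 2 held Cyp2e1 alone, 6 Cyp2f2 alone, 2 both and 4 neither, and the central list made up 7.14, 7.02, 12.5 and 5.56% of 24 to 114 UMIs, counts that separate no group. Summed Glul in shallow droplets was 231 CPM in library 1 (47.5 to 674) and 214 CPM in library 2 (139 to 316), between the 94.7 and 135 CPM of lymphocyte droplets and the 424 and 564 CPM of Kupffer droplets.

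At matched depth the interval for Cyp2e1 in library 2 lay above that of lymphocyte droplets and the interval for Cyp2f2 overlapped it. Thinned to 1000 UMIs, 23.5% of 51 shallow droplets held Cyp2e1 (12.8 to 37.5%) against 4.05% of lymphocyte droplets (1.64 to 8.16%), while 5.88% held Cyp2f2 (1.23 to 16.2%) against 2.89% (0.945 to 6.62%). Unthinned shares were 43.1 and 16% for Cyp2e1, and 11.1 and 5.14% for Cyp2f2. In library 1, 3 of 5 droplets held Cyp2f2 (60.0%, 14.7 to 94.7%) against 4.3% of lymphocyte droplets (1.18 to 10.6%). Summed over all shallow droplets of library 2, Cyp2f2 had 13 UMIs, or 111 CPM (59.3 to 190), against 9.35 CPM (4.27 to 17.7) in its lymphocyte and 7.23 CPM (6.37 to 8.18) in its Kupffer droplets.

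Hepcidin varied widely among the deep droplets of library 2. Hamp, which codes for the iron hormone, stood at 1, 0, 0 and 45 UMIs in the 4 Cyp2e1-rich droplets (in order of depth) and at 25, 23, 27, 215, 58 and 37 UMIs in the 6 Cyp2f2-rich ones, and at 0 in the library 1 droplet. Hamp2, the neighbouring copy on chromosome 7, stood at 0, 0, 0 and 41 and at 0, 57, 3, 0, 21 and 25 UMIs, and at 0 in library 1. The droplet with 215 Hamp UMIs had 0 of Hamp2, and the droplet with 57 Hamp2 UMIs had 23 of Hamp. All 6 Cyp2f2-rich droplets thus held Hamp, while 3 of the 4 Cyp2e1-rich ones held 0 or 1. The copies are closely related, so the split of counts between them is uncertain.

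The 2 hepcidin promoters are shown because the copies differed within single droplets. The runs lie on the minus strand, chr7:30944033-30944279 for Hamp and chr7:30924182-30924431 for Hamp2 (RefSeq, GRCm38.p6), and start 250 bases before the gene. Capitals mark GGCGCC, the core of the element through which bone morphogenetic protein signals act on Hamp.
Hamp: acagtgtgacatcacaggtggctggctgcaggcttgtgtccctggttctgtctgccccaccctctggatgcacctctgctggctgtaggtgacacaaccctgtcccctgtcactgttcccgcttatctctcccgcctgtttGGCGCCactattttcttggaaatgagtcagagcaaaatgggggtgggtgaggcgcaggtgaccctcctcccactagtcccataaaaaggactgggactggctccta
Hamp2: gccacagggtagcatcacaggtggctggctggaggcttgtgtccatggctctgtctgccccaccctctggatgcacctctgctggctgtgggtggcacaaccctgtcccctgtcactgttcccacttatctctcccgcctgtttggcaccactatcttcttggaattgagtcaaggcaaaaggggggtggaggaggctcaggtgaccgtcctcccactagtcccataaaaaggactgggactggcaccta
Hamp had 1 match, beginning 109 bases before the start, and Hamp2 none. Of 32851 promoters 9.59% held the motif, which reads the same on both strands.

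Hepcidin in shallow droplets was near the limit of detection. A Hamp UMI occurred in 6 of 14 droplets of library 1 (6 UMIs, 461 CPM) and in 10 of 72 of library 2 (17 UMIs, 146 CPM), a log2 ratio of library 2 over library 1 of -1.66 (-3.07 to -0.03). Kupffer droplets had 16.6 and 3.40 CPM (log2 ratio -2.29, -2.60 to -1.98). In deep droplets the order was opposite, 0 in 37085 UMIs against 431 UMIs in library 2, at least 23.1-fold higher against a floor of 3 UMIs. That comparison rests on a single library 1 droplet, whose zone differs from that of most library 2 droplets, so zone and library cannot be told apart in it.

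Between the libraries as a whole, 1307 genes had at least 50 CPM and 30 UMIs in either library. Of these 193 (14.8%) were at least 2-fold higher in library 2 and 117 (8.95%) at least 2-fold lower, and the median log2 ratio of all was -0.01. Without the deepest droplet of library 1 the counts were 222 (17%) and 255 (19.6%) of 1303. Of those 255 genes 125 had library 1 at 0 and passed 2-fold only through the floor of 3 UMIs, which can show no fall, and 130 did so with UMIs in library 1. Library 1 was at 0 for 282 of the 1303 genes, so the order of these counts cannot be read. Within shallow droplets 180 of 528 (34.1%) were higher and 23 (4.36%) lower around a median of 0.61, and within deep droplets 116 of 790 (14.7%) higher and 109 (13.8%) lower around -0.12.

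Metallothionein transcripts were nearly absent from the library 1 droplets and frequent in those of library 2. Mt1 and Mt2 code for small proteins that bind zinc and copper, and hepatocytes raise them under metal load, glucocorticoids and inflammation. The library 1 deep droplet held no Mt1 UMI and those of library 2 held 60, 284, 180 and 531 in the 4 Cyp2e1-rich and 168, 179, 183, 264, 387 and 151 in the 6 Cyp2f2-rich droplets, each group in order of depth. All 10 held Mt1, and the 2 groups overlapped. Only 1 of 14 shallow droplets of library 1 held Mt1, with 1 UMI, against 67 of 72 in library 2 (median 5 UMIs, up to 50). Mt2 followed with 0 against 9 to 57 UMIs in deep droplets, and in shallow droplets with 1 of 14 against 51 of 72.

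The size of the metallothionein gap was large in both depth classes. Summed Mt1 was 1 UMI in library 1 and 3029 in library 2, a 437-fold ratio (log2 8.77, 6.29 to 14.08). Within deep droplets it was at least 128-fold higher in library 2, and within shallow droplets the log2 ratio was 6.16 (3.68 to 11.5). Mt2 had log2 ratios of 5.74 (3.26 to 11.05) over all, at least 13.52-fold in deep and 3.73 (1.22 to 9.04) in shallow droplets. In Kupffer droplets the ratios had the same sign, at 1.89 (1.81 to 1.97) for Mt1 and 2.91 (2.57 to 3.27) for Mt2. The Kupffer interval lay below that of shallow droplets for Mt1 and inside it for Mt2, so only Mt1 was smaller beyond counting error.

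Background detection was lower. After thinning to 1000 UMIs, 94.1% of shallow droplets of library 2 held Mt1 (83.8 to 98.8%) against 10.4% of its lymphocyte droplets (6.28 to 15.9%) and 23.1% of its Kupffer droplets (21.9 to 24.4%). Unthinned the shares were 93.1, 27.4 and 62.4%. In library 1, 1 of 5 shallow droplets (20%, 0.505 to 71.6%) held Mt1 after thinning, an interval too wide to set against its lymphocyte droplets at 2.15% (0.262 to 7.55%).

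Both genes lie side by side on chromosome 8, and their upstream bases are shown because both genes were higher in library 2 in each depth class. The runs are on the plus strand, chr8:94178839-94179081 for Mt1 and chr8:94172368-94172617 for Mt2 (RefSeq, GRCm38.p6), begin 250 bases before the start and hold no exon base of the gene. Capitals mark TGCACNC or TGCGCNC, the core of the metal response element, on either strand.
Mt1: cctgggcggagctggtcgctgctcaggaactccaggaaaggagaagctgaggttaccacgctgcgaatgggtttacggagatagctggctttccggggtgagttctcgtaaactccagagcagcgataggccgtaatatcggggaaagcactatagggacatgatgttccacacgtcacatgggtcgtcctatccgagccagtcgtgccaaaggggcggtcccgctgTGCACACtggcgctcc
Mt2: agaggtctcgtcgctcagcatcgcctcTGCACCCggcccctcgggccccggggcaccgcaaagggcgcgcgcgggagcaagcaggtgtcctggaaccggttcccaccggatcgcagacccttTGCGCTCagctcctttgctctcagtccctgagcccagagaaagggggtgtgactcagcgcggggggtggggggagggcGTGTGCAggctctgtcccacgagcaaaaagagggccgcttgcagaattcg
Mt1 had 1 match and Mt2 had 3, and 21.4% of 32851 promoters of this length held at least 1. RefSeq starts were used, and other annotated starts would move the window.

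Major urinary proteins, small lipid carriers that male mouse liver makes in bulk, had library ratios of opposite sign in deep and shallow droplets. In library 1 shallow droplets Mup20 was found in all 14, at 1 to 26 UMIs and a median of 5599 CPM, against 55 of 72 and a median of 1107 CPM in library 2. The summed log2 ratio was -1.97 (-2.31 to -1.62) in shallow droplets and -2.18 (-2.26 to -2.10) in Kupffer droplets. In deep droplets it was 1.19 (0.84 to 1.55), with 74 UMIs in the library 1 droplet and 27 to 223 in those of library 2. The zone of that library 1 droplet differs from that of most library 2 droplets, so zone and library cannot be told apart there. Over all droplets, 5 members of the list were measured, of which 1 was at least 2-fold higher in library 2 and 0 lower, with a median log2 ratio of 0.63, against 14.8% higher and 8.95% lower among all measured genes. In shallow droplets 2 of 5 were lower and none higher (median -0.75). Of all 528 genes measured in shallow droplets 34.1% were higher and 4.36% lower, around a median of 0.61. Members of this family are near-identical copies, so counts of single genes are uncertain.

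Male-biased genes were present and female-biased genes nearly absent. Of the male-biased list, Cyp2d9 was found in all 11 deep droplets (1 to 61 UMIs) and Selenbp2 in all 11 (2 to 13 UMIs). The 15 genes of the female-biased list took 0.00270% of UMIs in the library 1 deep droplet and at most 0.00984% in those of library 2, and none reached 30 UMIs. In Kupffer droplets library 2 was below library 1 by 2-fold or more for all 11 measured male-biased genes, with a median log2 ratio of -1.68, where 6.97% of 3385 genes measured in those droplets were that much lower and 3.96% that much higher. In hepatocyte-rich droplets 3 of 8 were lower, 1 was higher and the median was -0.08, against 8.95% lower and 14.8% higher among all measured genes. Without the deepest library 1 droplet 2 of 8 were lower and 4 higher (median 0.64), where 19.6% of all measured genes were lower and 17% higher. In shallow droplets alone 1 of 2 measured genes was lower and none higher (median -0.78). There 4.36% of all 528 measured genes were lower and 34.1% higher, around a median of 0.61.

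The zone lists differed between the libraries in the sum. For all 14 measured genes of the central list library 2 was lower by 2-fold or more (median log2 ratio -2.69), and 15 of 20 portal genes were at least 2-fold higher with 1 lower (median 1.32). Among all measured genes 14.8% were higher and 8.95% lower. These list differences did not hold without the deepest library 1 droplet. Then 5 of 10 central genes were higher and none lower (median 0.998), and 6 of 20 portal genes were higher and 3 lower (median 0.09). Of all genes measured without that droplet 17% were higher and 19.6% lower. Lowest in library 2 were Slc1a2 (log2 ratio -8.28, -13.62 to -5.73), Glul (-6.51, -7.13 to -5.94), Cyp2c37, Cyp2a5 and Oat (-4.70, -5.17 to -4.25). In shallow droplets Glul was at -0.11 (-1.82 to 2.26) and Oat at 1.69 (-0.90 to 7.04), so neither differed beyond counting error there.

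Genes of the urea cycle and of the acute phase were higher in library 2 in the sum. Of 7 measured urea cycle genes 5 were at least 2-fold higher and none lower (median log2 ratio 1.56). Among all measured genes 14.8% were higher and 8.95% lower. Ass1 stood at 3.3 (2.48 to 4.25) and Cps1 at 3.53 (2.29 to 5.16). The library 1 sum is mostly 1 droplet, whose zone differs from that of most library 2 droplets, so zone and library cannot be told apart. Without that droplet 4 of 7 were higher and none lower (median 1.03), where 17% of all measured genes were higher and 19.6% lower. That comparison set only shallow droplets of library 1 against both depth classes of library 2. In shallow droplets alone 2 of 4 were higher and none lower (median 0.58), with library 1 at 0 for 1 of them. Of all 528 genes measured there, 34.1% were higher and 4.36% lower around a median of 0.61. In shallow droplets Ass1 was at 1.5 (0.60 to 2.58) and Cps1 at -0.44 (-1.81 to 1.27). Of 11 acute phase genes, plasma proteins that rise in inflammation, 7 were higher and none lower (median 1.28), yet in shallow droplets none of 6 was higher and 1 was lower (median -0.51), where 34.1% of all 528 measured genes were higher and 4.36% lower around a median of 0.61. The acute phase genes include Hpx and the fibrinogen chains. Fgb stood at 43 UMIs in the library 1 deep droplet, of 37085 UMIs, and at 33 to 146 UMIs in those of library 2, of 11268 to 30746 UMIs. As a share of UMIs, the whole acute phase list took 0.491% in the library 1 deep droplet and 1.11 to 2.64% in those of library 2. Zone and library cannot be told apart there either.

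Apoa4, an apolipoprotein induced by fasting and fat, had 1 UMI in library 1 and 275 in library 2 (log2 ratio 5.31, 2.82 to 10.62). It occurred in all 10 deep droplets of library 2 at 2 to 87 UMIs, with 87 and 62 in 2 of the Cyp2e1-rich ones, and in 31 of 72 shallow ones, against 1 UMI in the library 1 deep droplet and 0 of 14 shallow ones. In Kupffer droplets its ratio was 3.41 (2.92 to 3.96). The ferritin chains, which store iron, had library ratios that differed by depth class. Fth1 was at -0.99 (-1.19 to -0.78) in deep and 2.44 (1.73 to 3.25) in shallow droplets, and Ftl1 at 0.46 (0.23 to 0.70) and 2.79 (2.18 to 3.46). Kupffer droplets, rich in ferritin, had Fth1 at 2.69 and Ftl1 at 1.36, and Marco, a macrophage scavenger receptor, at 4.34 in shallow and 4.72 in Kupffer droplets. The part of Kupffer cell RNA in the shallow ferritin ratios was not tested.

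**Figure D4:**
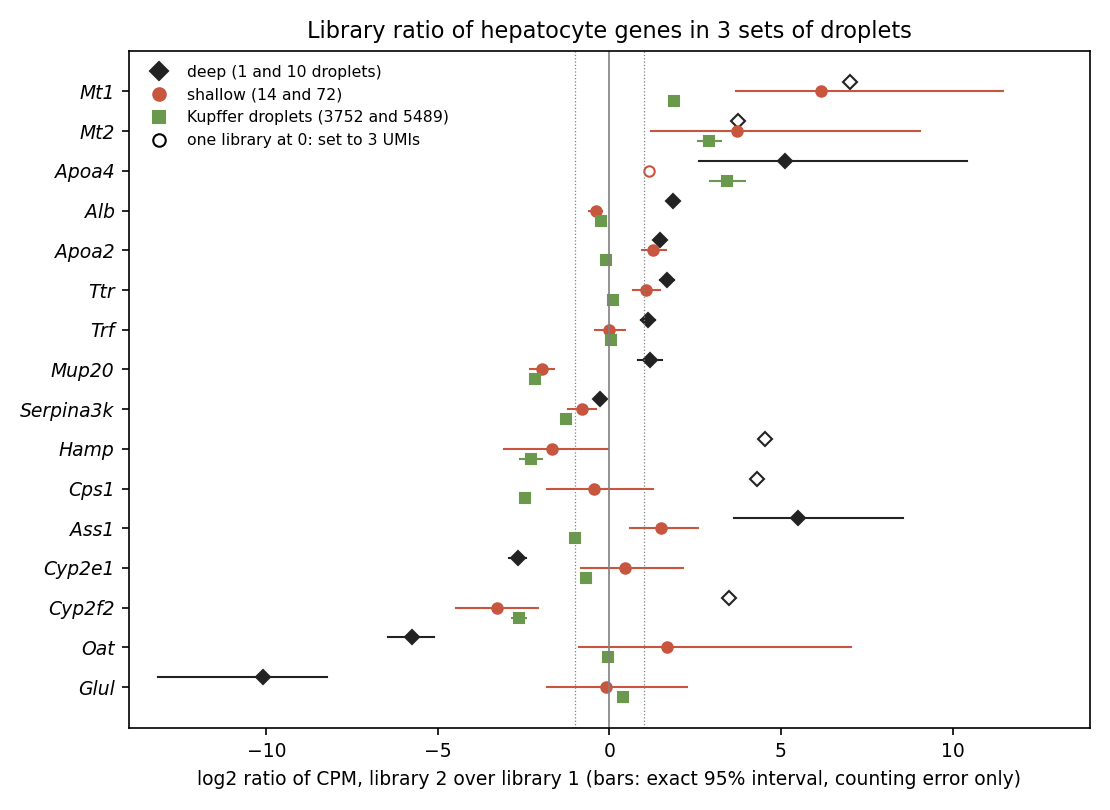
Log2 ratio of CPM, library 2 over library 1, for 16 hepatocyte genes (rows) in deep droplets, shallow droplets and Kupffer droplets, with exact 95% intervals of counting error; open symbols have one library at 0, set to 3 UMIs, and show no interval. Mt1 and Mt2 lie to the right in all 3 sets. Points of Hamp, Mup20, Cyp2f2, Alb, Cps1, Cyp2e1 and Oat, among others, lie on opposite sides in deep and shallow droplets. For Cps1, Cyp2e1 and Oat the interval in shallow droplets includes 0.

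Regulators and surface proteins of hepatocytes were sparse at this depth. Of 10 measured genes of the liver transcription factor list, 1 was at least 2-fold higher and 4 lower in library 2 (median log2 ratio -0.47). Among all measured genes 14.8% were higher and 8.95% lower. Without the deepest library 1 droplet none of 10 was higher and 3 were lower (median -0.09), 1 of them through the floor. Of all genes measured then, 17% were higher and 19.6% lower. In shallow droplets only 1 gene of the list was measured. Hnf4a stood at 7 UMIs in the library 1 deep droplet and at 0 to 8 UMIs in those of library 2. Asgr1 was present in all 11 deep droplets at 5 to 22 UMIs and the bile acid importer Slc10a1 in all 11 at 3 to 15 UMIs. Of the 16 proliferation genes none reached 30 UMIs, and the list took 0.00539% of UMIs in the library 1 deep droplet and a median of 0% (at most 0.0107%) in those of library 2.

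Mitochondrial RNA differed by library in shallow droplets. The summed share of the 13 mitochondrial genes was 23.4% in the 14 droplets of library 1 and 15.5% in the 72 of library 2, and in Kupffer droplets it was 19.1 and 13.4%. In deep droplets it was 14.6% in library 1 and had a median of 19.8% in library 2 (15.03 to 34.4%). The droplet of 11268 UMIs, the shallowest of the deep class, had the highest mitochondrial share of the class at 35.0% and the lowest hepatocyte share of the library 2 ones at 6.76%. Immediate early genes, a class known to rise during tissue dissociation, took 0.0674% in the library 1 deep droplet and 0.0268 to 0.195% in those of library 2, against 0.298 and 0.190% in Kupffer droplets.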

How the data were processed

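Droplet counts of unique molecular identifiers (UMIs) per gene came from 1 matrix that the authors deposited, made with Cell Ranger 3.0.1 on genome build GRCm38.p5, per the submitters' processing notes, which also name R 3.6.1. The annotation release is not given in the sources used here. The matrix holds 26078 genes and 18633 barcodes of 2 libraries, and 25965 gene IDs matched GENCODE M21. Kept droplets had medians of 3002 UMIs in library 1 and 4087.5 in library 2.

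Members were chosen by the limits stated at the opening of the report, with no doublet caller and no doublets removed. Counts were summed per library and scaled to CPM. A gene was measured with at least 50 CPM and 30 UMIs in either library, and a ratio counted as apart at 2-fold. Intervals are exact at 95% (Clopper-Pearson for shares, Poisson for CPM, conditional binomial for ratios), and a library at 0 was set to a floor of 3 UMIs. PCR and droplet capture make them cover counting error only. For detection at matched depth, droplets were thinned once to 1000 UMIs, leaving out shallower ones.

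Members and lists were chosen with earlier results of these data known. Of 568 listed genes in 43 lists, 560 were in the matrix. Named genes were the 6 of the rule, the 15 of highest CPM per library, the 15 highest over other droplets, the 12 highest and 12 lowest library ratios, and list members with at least 10 UMIs or given as absent. The split of deep droplets by Cyp2e1 and Cyp2f2, and the promoters shown, were chosen after values were seen. Scripts were tested on simulated data. Intervals used scipy 1.17.1, tables used pandas 2.3.3 with numpy 2.4.6 under python 3.11.15, and plots used matplotlib 3.10.9. Alternatives were other limits of the rule, other CPM denominators, centring and weights, other filters on low values, other thinning depths and, added after seeing the data, the 2 depth classes and the deepest droplet left out.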

Additional observations from a re-analysis of the deposited data

How the results depend on the processing

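No paired analysis was possible because there is 1 mouse per genotype and no label ties a library to it. The share of hepatocyte-rich droplets stayed higher in library 2 under all 9 alternatives tried for it, but its size followed the limits. Library 1 fell to 0.112% with at most 20% mitochondrial UMIs, 0.137% with at least 500 genes, 0.0838% with a hepatocyte share of at least 5%, 0% at 10% and 0.0528% with at least 2000 UMIs. Library 2 was 0.389% at 5%, 0.108% at 10%, 0.389% with Kupffer genes below 0.4%, 1.25% with no Kupffer limit, 0.681% with globin below 2% and 0.451% with at least 2000 UMIs. With a hepatocyte share of at least 10% no library 1 droplet was left, so no ratio could be given.

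Counts of genes at least 2-fold apart (193 higher and 117 lower in library 2) became 68 lower with at most 20% mitochondrial UMIs, 67 higher and 644 lower at a 5% hepatocyte share, 238 higher and 70 lower when centred on the median of genes (a shift of -0.21), 506 higher with droplets weighted equally, 387 higher and 617 lower with at least 10 CPM and 10 UMIs, and 387 and 1931 with at least 5 UMIs. Some of these lower genes had library 1 at 0 and passed 2-fold only through the floor of 3 UMIs, which can show no fall: 473 of the 644, 55 of the 617, 760 of the 1931 and 125 of the 255 that follow. They were 255 lower without the deepest library 1 droplet, 23 lower below 10000 UMIs and 116 higher at 10000 UMIs or more. Thinned to 2000 UMIs, 55.6% of shallow library 2 droplets held Cyp2e1, and thinned to 500 UMIs, 75.0% held Mt1.

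Ratios (log2) whose fitted value changed sign are grouped by alternative, and the cause was not tested. Hba-a2, Hbb-bt and Serpina12 are no reversals where given here: library 1 was at 0, so their values are lower bounds set by the floor. At a 5% hepatocyte share the urea cycle median was -0.69 and the portal median -0.18, with library 1 at 0 for 3 of 7 and 3 of 18 genes, and with Cyp2e1 at 1.98, Hba-a2 at -0.91, Hbb-bt at -1.12 and Serpina12 at -1.88. With Kupffer genes below 0.4% the bile acid median was 0.0501. With droplets weighted equally the portal median was -0.74, with Alb at -0.15, Cyp2c50 at 0.89, Ang at 0.43, Gstt1 at 1.87, Rgn at 2.04, Cps1 at -0.13, Hamp at -0.62 and Gstm2 at 1.79. Without the deepest library 1 droplet the P450 median was 0.27 and the central median 0.998, with Cyp2e1 at 1.43, Cyp2c50 at 0.67, Ang at 1.47, Rgn at 3.26, Leap2 at 0.12, Serpina6 at 0.22 and Oat at 0.93. Below 10000 UMIs the medians were -0.51 for acute phase, 0.47 for P450, 1.49 for central and -0.26 for portal genes, with Alb at -0.40, Cyp2e1 at 0.47, Ang at 0.74, Rgn at 3.26, Cps1 at -0.44, Hamp at -1.66 and Oat at 1.69. At 10000 UMIs or more the bile acid median was 0.10, with Hba-a2 at -0.90 and Hbb-bt at -0.76. Mt1 and Mt2 kept their sign under each alternative that gave a ratio, at 2.64 to 8.98 for Mt1 and 0.29 to 5.95 for Mt2, some of them lower bounds with library 1 at 0.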
